A study of Oryza sativa with 12 samples.

Results

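The effect of adding the asp1-fe allele to fon2-3 rice plants was measured by comparing the 3 arrays of the double mutant fon2-3 asp1-fe with the 3 arrays of the single mutant fon2-3, which are 6 of the 12 arrays of the series. Both groups carry fon2-3, so the comparison leaves out the effect of fon2-3 itself and asks what the asp1-fe allele adds to it. The other 6 arrays, 3 of asp1-10 and 3 of wild type (WT), entered the estimate of the spread and served as a further comparison of an asp1 mutant with its reference. RNA came from inflorescence meristems at an early stage, with a few bracts attached, dissected from plants grown in pots outdoors. The double mutant carries asp1-fe, while the line set against WT carries asp1-10, so allele and background cannot be told apart where these lines differ. The labels used here do not describe the asp1-fe lesion, nor do they say whether the 4 lines share 1 parental background or whether arrays of a genotype came from separate plants. The p-values therefore measure only the spread between these samples, which may be technical. Because whole dissected tissue was used, fewer cells of a type and less RNA per cell cannot be told apart.

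FON2 encodes a small secreted peptide of the CLAVATA3 kind, which acts through receptor kinases such as FON1 to restrain the size of the floral and inflorescence meristem. ASP1 encodes a corepressor of the TOPLESS kind, a protein that binds repressive transcription factors, the Aux/IAA auxin repressors among them, and keeps their target genes low. Loss of ASP1 in rice is known to disturb panicle branching, spikelet form and the activity of the branch meristem. Neither mutated gene was found under its name among the genes read here, so the genotypes could not be checked on them. Whether a gene known only by a locus number is FON2 or ASP1 was not tested. WUSCHEL-type and KNOX homeobox genes keep meristem cells undifferentiated, and MADS-box, APO and LAX genes set when the inflorescence meristem becomes branches and spikelets.

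The table held 54922 probes, and 15140 genes were read through a probe with 1 listed gene, taking the probe with the highest mean where a gene had several. Values are log2 signals between 0.68 and 14.01. The median of all values, 5.55, was taken as a dim level: a genotype mean below it was not shown to exceed background, and a change measured from or to such a mean can be too small. Array medians ran from 5.51 to 5.60. The shoot meristem genes OSH1, OSH15 and OSH71 lay above the dim level on all 6 arrays. Of the 7 photosynthesis genes, read as markers of green bract tissue, 3 were dim in both groups. The chlorophyll-binding protein genes CAB1R and CAB2R were among these, between 2.06 and 2.85 in fon2-3 asp1-fe and between 1.73 and 2.87 in fon2-3. Of the 9 anther and tapetum genes, 4 were dim in both groups.

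Few genes changed when asp1-fe was added. With limma, a linear model with a shared estimate of the spread, and Benjamini-Hochberg adjustment over all probes at a threshold of 0.05, 5 of 54922 probes (0.0091%) were called, 4 higher and 1 lower in fon2-3 asp1-fe. They stood for 3 of 15140 genes (0.0198%): LOC4326339 and ASPR2 rose (0.0132%) and LOC4325412 fell (0.00661%). An unadjusted p under 0.05 was found for 791 genes, which is 5.22% of all genes and near the share that the threshold itself lets through, with 349 higher (2.31%) and 442 lower (2.92%). Arrays of the 2 groups did not overlap for 11.8% of genes. The median absolute change was 0.11 on the log2 scale, and 37 genes (0.244%) differed by more than 1, with 23 higher and 14 lower. For 14494 genes (95.7%) the 95% interval of the change, taken gene by gene, lay within a factor of 2 in either direction. A gene of median standard error, 0.15, needed a change of about 1.23 to be called at the number of calls made here. With 3 arrays a group, smaller differences of such a gene were not detectable, while genes of smaller standard error needed less. The permutation test of 3 arrays against 3 could not give a two-sided p below 0.1 and was not used.

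**Figure D1:**
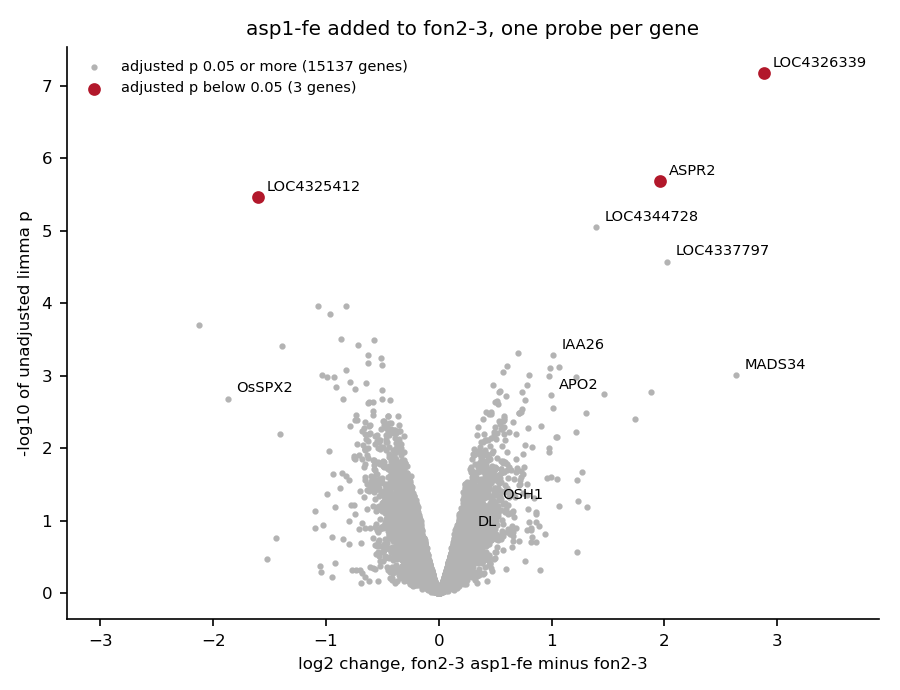
Log2 change in fon2-3 asp1-fe minus fon2-3 (x axis) against −log10 of the unadjusted p (y axis), 1 point per gene for 15140 genes. The 3 genes with an adjusted p below 0.05 are red: LOC4326339 and ASPR2 on the right and LOC4325412 on the left.

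LOC4326339 rose furthest and was read by a pair of probes. The probe 15803546 read 6.32, 6.68 and 5.88 in fon2-3 asp1-fe, against 2.19, 1.82 and 2.25 in fon2-3. It read 2.32, 2.36 and 2.08 in asp1-10, against 2.55, 2.22 and 2.33 in WT. The double mutant was thus above the dim level on every array, while all 9 arrays of the other genotypes lay near the bottom of the scale. The change was 4.21 ± 0.20 (log2, SE, n = 3 each, adjusted p = 9.65e-06), a measured 18.5-fold difference from a level that was not shown to exceed background. The probe 15821976, which stands for the gene in the counts of genes, read 6.51, 7.0 and 7.08 in fon2-3 asp1-fe, against 4.23, 4.01 and 3.69 in fon2-3. It read 3.88, 3.45 and 3.98 in asp1-10, against 3.31, 3.52 and 4.05 in WT, and its change in the double mutant was 2.89 ± 0.23 (SE, n = 3 each, adjusted p = 0.00184). Both probes gave the same picture, a signal in the double mutant and a dim one in the other lines. The gene lies on chromosome 1 in the rice gene table, which gives it no name or role.

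ASPR2, which encodes a TOPLESS-type corepressor related to ASP1, rose by 1.96 ± 0.22 (log2, SE, n = 3 each, adjusted p = 0.0284), a 3.9-fold difference. It read 10.88, 10.75 and 11.13 in fon2-3 asp1-fe, against 8.39, 9.45 and 9.03 in fon2-3. All 3 double mutant arrays lay more than 1 log2 unit above the highest fon2-3 array, replicate 2. The same gene read 11.02, 10.84 and 10.68 in asp1-10, against 8.74, 8.74 and 8.78 in WT, a change of 2.09 (adjusted p = 0.00698). ASPR1 was the other corepressor of this kind found by name. It was bright and nearly level, at 11.43, 11.44 and 11.46 in fon2-3 asp1-fe and 11.24, 11.33 and 11.30 in fon2-3 (0.15, adjusted p = 0.938). Whether the ASPR2 probe also reads transcripts of ASP1 was not tested. The ASPR2 call was lost when the fit held only the 6 arrays compared (adjusted p = 0.5) and when any 1 of 10 arrays was left out, with adjusted p between 0.0571 and 0.203; without fon2-3 replicate 1 or 2 it held, at 0.0259 and 0.0104. The size of the change stayed between 1.68 and 2.21 under all 21 alternatives.

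LOC4325412, on chromosome 1 and without a name in the gene table, was the gene that fell. It read 6.04, 6.03 and 5.71 in fon2-3 asp1-fe, against 7.31, 7.42 and 7.85 in fon2-3, a change of −1.60 ± 0.19 (log2, SE, n = 3 each, adjusted p = 0.0382). It read 6.01, 6.21 and 5.95 in asp1-10, against 7.42, 7.34 and 6.81 in WT (−1.14, adjusted p = 0.0233). In both pairs every asp1 mutant array lay below every array of its reference. Such a separation, in either direction, was found for 11.8% of all genes in fon2-3 asp1-fe against fon2-3 and for 27.5% in asp1-10 against WT. The call was lost under 17 of 21 alternatives, with adjusted p up to 0.339. These included the 3 other scalings of the arrays (0.0548 to 0.0585), the fit of the 6 arrays alone (0.336) and 11 of the 12 fits that left out 1 array (0.0656 to 0.256; it held without WT replicate 3, at 0.0225).

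The fifth called probe, 15876607, has no listed gene. It read 7.27, 7.05 and 7.18 in fon2-3 asp1-fe, against 5.95, 6.03 and 5.65 in fon2-3 (1.29 ± 0.14, SE, n = 3 each, adjusted p = 0.0239). In asp1-10 it read 6.42, 6.34 and 6.16, against 5.78, 5.82 and 6.10 in WT, a difference of 0.41 that was not called (adjusted p = 0.142). Its call held under 9 of 21 alternatives.

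**Figure D2:**
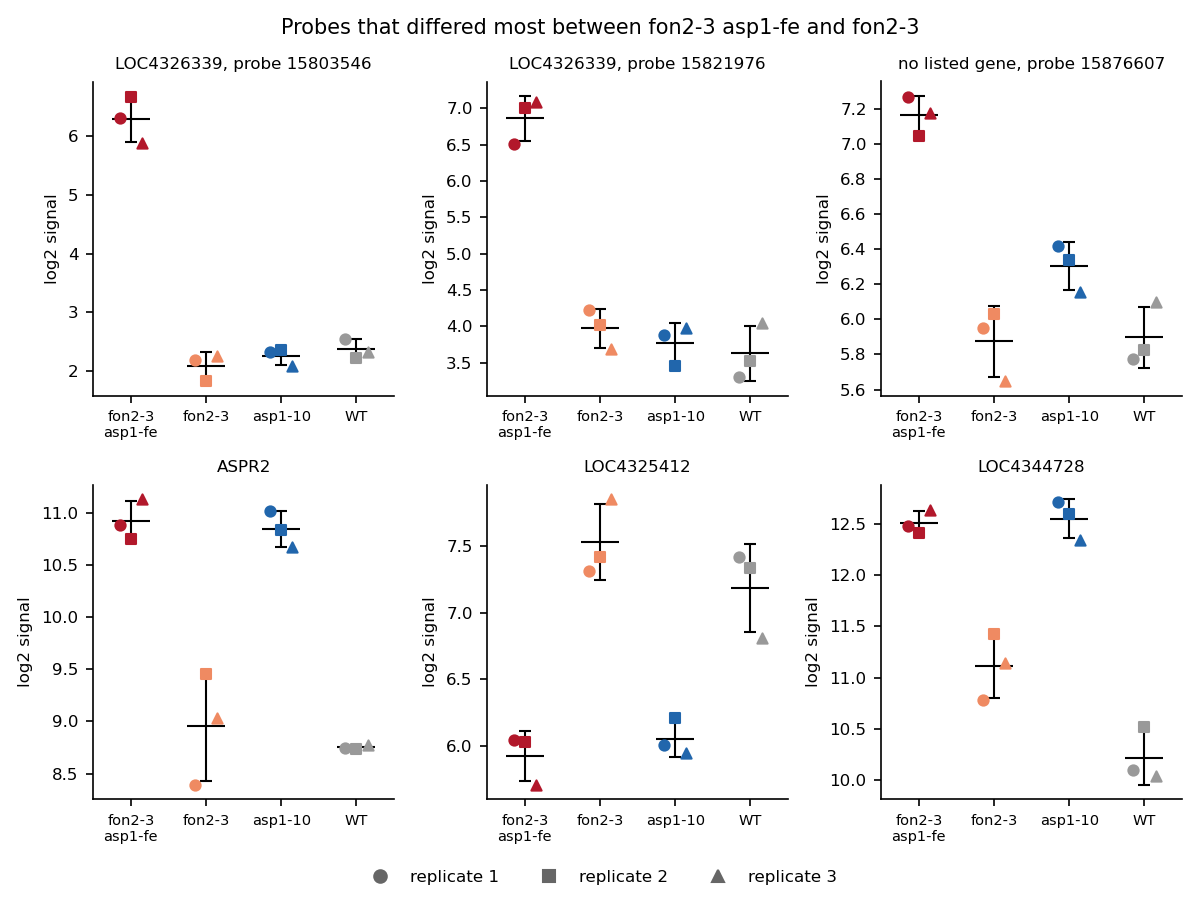
Log2 signal of the 5 called probes and of LOC4344728 in each array of fon2-3 asp1-fe, fon2-3, asp1-10 and WT. Symbols mark the replicate and bars the mean ± SD of 3 arrays; LOC4326339 is high in fon2-3 asp1-fe alone, while ASPR2 and LOC4344728 are high and LOC4325412 is low in both lines with an asp1 allele.

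The 2 genes and the probe that came next in the order of p did not pass the threshold and are named after their values were seen. LOC4344728, on chromosome 8 and the brightest of these, read 12.48, 12.42 and 12.64 in fon2-3 asp1-fe, against 10.78, 11.42 and 11.14 in fon2-3 (1.40, adjusted p = 0.0811). In asp1-10 it read 12.72, 12.60 and 12.35, against 10.09, 10.52 and 10.04 in WT (2.34, adjusted p = 0.00263). LOC4337797, on chromosome 5, read 7.49, 7.93 and 7.82 in fon2-3 asp1-fe, against 5.52, 6.45 and 5.20 in fon2-3 (2.02, adjusted p = 0.183), and in asp1-10 it was 2.07 above WT (adjusted p = 0.014). The probe 16062133, without a listed gene, read 7.60, 7.34 and 7.24 in fon2-3 asp1-fe, against 5.53, 6.31 and 5.69 in fon2-3 (1.55, adjusted p = 0.0925). For all 3, replicate 2 was the highest of the fon2-3 arrays. Without that array the adjusted p was 0.046 for LOC4344728, 0.0189 for LOC4337797 and 0.0192 for the probe, and leaving out the highest array of the lower group can only enlarge the difference. Without fon2-3 replicate 3 the adjusted p was 0.513 for LOC4344728, 0.585 for LOC4337797 and 0.551 for the probe. With fon2-3 replicate 2 and fon2-3 asp1-fe replicate 3 both left out it was 0.276 for LOC4344728, 0.119 for LOC4337797 and 0.0839 for the probe.

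Among regulators of the inflorescence, MADS34 had the largest difference. MADS34 is a SEPALLATA-type MADS-box factor known to limit branching and to promote spikelet identity in the rice panicle. It read 9.47, 9.83 and 9.98 in fon2-3 asp1-fe, against 6.84, 8.75 and 5.78 in fon2-3. The groups did not overlap, as for 11.8% of all genes, yet the fon2-3 arrays spanned 3 log2 units, and the change of 2.64 ± 0.60 (SE, n = 3 each) did not pass (adjusted p = 0.664). In asp1-10 it read 9.92, 9.51 and 9.50, against 6.11, 6.90 and 7.60 in WT (2.77, adjusted p = 0.0417). Without fon2-3 replicate 2, the highest of its group, the difference was 3.45 with an adjusted p of 0.046, while without fon2-3 replicate 3, the lowest, it was 1.97 with an adjusted p of 0.976. With fon2-3 replicate 2 and fon2-3 asp1-fe replicate 3 both left out, the adjusted p was 0.276.

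APO2, the rice LEAFY homologue, which controls panicle size and branching, followed with a smaller difference. It read 9.49, 9.75 and 9.85 in fon2-3 asp1-fe, against 8.37, 9.26 and 8.50 in fon2-3 (0.99 ± 0.24, SE, n = 3 each, adjusted p = 0.727). It read 9.70, 9.36 and 9.56 in asp1-10, against 7.52, 8.29 and 8.02 in WT (1.60, adjusted p = 0.0152). LAX1, a bHLH factor needed for axillary meristems, read 5.51, 5.66 and 6.35 in fon2-3 asp1-fe and 5.42, 9.33 and 4.98 in fon2-3, so a single fon2-3 array stood far above the other 5. Of the 12 branching and spikelet regulators, none was called, APO2 alone had an unadjusted p under 0.05, and the median change was −0.03, beside −0.02 over all genes. Of the 21 MADS-box genes, none was called. Those under an unadjusted p of 0.05 were MADS34, MADS50, a flowering activator (0.40), and MADS18 (0.24), all higher in fon2-3 asp1-fe. They were 14.3% of the list, beside 5.22% of all genes. The median of the 21 was 0.05, and 14 of them, floral organ genes such as MADS1, MADS3 and MADS58 included, were dim in both groups.

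No gene of the meristem maintenance lists was called. FON1, the receptor kinase of the CLAVATA1 kind, read 6.39, 6.46 and 7.39 in fon2-3 asp1-fe and 6.47, 7.66 and 6.37 in fon2-3 (−0.08, 95% interval −0.93 to 0.76, adjusted p = 0.994), and the sign turned without fon2-3 replicate 2 (0.33). WOX4, a WUSCHEL-type homeobox gene, read 5.93, 5.85 and 5.96 in fon2-3 asp1-fe and 5.92, 5.76 and 5.55 in fon2-3 (0.17, adjusted p = 0.941). The other 4 genes of the CLAVATA and WUSCHEL list were dim in both groups. OSH1, the KNOX gene that marks undifferentiated shoot meristem, read 8.64, 9.06 and 8.91 in fon2-3 asp1-fe and 8.0, 8.79 and 8.37 in fon2-3 (0.48, 95% interval −0.03 to 0.998, adjusted p = 0.929). OSH15 differed by 0.28 (95% interval −0.28 to 0.84) and OSH71 by 0.12 (−0.40 to 0.65), while OSH45 had the largest difference of the list, 0.61. None of the 7 KNOX and related genes had an unadjusted p under 0.05, with 4 positive and 3 negative and a median of 0.12. In asp1-10 against WT, OSH15 (1.15, adjusted p = 0.0436) and OSH71 (1.297, adjusted p = 0.0283) were called higher.

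Organ identity and growth factors were spread on both sides of 0. DL, the YABBY gene of carpel and midrib, read 10.22, 10.14 and 10.24 in fon2-3 asp1-fe and 10.04, 9.57 and 10.18 in fon2-3 (0.27, adjusted p = 0.939). In asp1-10 it read 8.52, 8.61 and 8.99, against 10.14, 10.38 and 10.06 in WT, a fall of −1.49 (adjusted p = 0.00805). YAB2 was the YABBY gene furthest from 0, at 6.74, 6.55 and 6.51 in fon2-3 asp1-fe and 5.17, 6.45 and 5.85 in fon2-3 (0.78, adjusted p = 0.897), and the list of 6 had a median of 0.27. In the HD-ZIP list of 17, HOX4 (0.96), a dwarfing homeobox gene, and hox32 (0.29) were higher and HOX7 (−0.31) lower at an unadjusted p under 0.05. These were 17.6% of the list, beside 5.22% of all genes. HOX4 read 8.08, 9.11 and 8.07 in fon2-3 asp1-fe, against 7.42, 7.98 and 6.98 in fon2-3. SPL7 (0.53) among 7 SPL factors (14.3%) and GRF6 (0.37) among 4 growth-regulating factors (25%) were the members of their lists under that p, both higher. In the TCP list of 6, PCF3 (0.27) was higher and PCF8 (−0.46) lower under that p (33.3% of the list), both dim in both groups. No member of these lists was called.

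Auxin repressors had differences in both directions. Of the 19 Aux/IAA genes, whose products recruit corepressors of the ASP1 kind, none was called, and 5 (26.3%, beside 5.22% of all genes) had an unadjusted p under 0.05, with a median over the list of 0.02. IAA26 read 6.77, 7.0 and 7.08 in fon2-3 asp1-fe, against 5.35, 6.32 and 6.13 in fon2-3 (1.02, adjusted p = 0.636). IAA2 (0.41) and IAA5 (0.23) were higher too, while IAA6 (−0.99) and IAA23 (−0.85, dim in both groups) were lower. IAA6 read 7.70, 6.95 and 6.99 in fon2-3 asp1-fe, against 7.86, 7.91 and 8.84 in fon2-3, with 1 fon2-3 array well above the rest. Of the 12 auxin response factors, which the Aux/IAA proteins hold back, ARF5, the rice relative of MONOPTEROS, was the one under that p, at 10.69, 10.97 and 10.65 in fon2-3 asp1-fe and 10.04, 10.49 and 10.17 in fon2-3 (0.53, adjusted p = 0.795). Their median was 0.11. None of the 14 genes of auxin synthesis, transport and response had an unadjusted p under 0.05, among them the PIN efflux carriers, PID and the GH3 enzymes.

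Of the 26 cytokinin genes, none was called and 4 (15.4%) had an unadjusted p under 0.05, all lower in fon2-3 asp1-fe, beside 5.22% of all genes in either direction and 2.92% lower. They were the histidine kinase gene HK1 (−0.66) and the response regulators RR2 (−0.32), RR4 (−0.49) and RR9 (−0.64). Members were matched by name, and whether HK1, also listed as MHZ1, acts in cytokinin signalling was not tested. HK1 was near the dim level, at 5.01, 5.40 and 5.05 in fon2-3 asp1-fe and 5.59, 5.73 and 6.11 in fon2-3, and RR9 was dim in both groups. RR2 read 7.27, 7.46 and 7.38 in fon2-3 asp1-fe, against 7.67, 7.64 and 7.76 in fon2-3. LOG, the cytokinin-activating enzyme of the shoot meristem, differed by 0.02 (adjusted p = 1). The list was evenly divided, with 13 members positive, 13 negative and a median of 0.00. Of the 8 gibberellin and brassinosteroid genes, CYP724B1, a brassinosteroid synthesis enzyme, read 7.88, 8.05 and 8.47 in fon2-3 asp1-fe, against 7.25, 7.51 and 7.62 in fon2-3 (0.68, adjusted p = 0.911). GA20OX3, a gibberellin synthesis enzyme, read 6.07, 6.41 and 6.75 in fon2-3 asp1-fe, against 7.17, 6.78 and 6.75 in fon2-3 (−0.49, adjusted p = 0.884). Both had been called in the same direction in asp1-10 against WT, at 1.39 (adjusted p = 0.0429) and −1.23 (adjusted p = 0.0133).

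Housekeeping and stress lists held no called gene. None of the 43 cell cycle and replication genes had an unadjusted p under 0.05, and their changes ran from −0.31 to 0.30 around a median of 0.01. The 10 cytosolic ribosomal protein genes were all positive, by 0.02 to 0.21, with none under that p. The 7 photosynthesis genes ran from −0.05 to 0.26. Of the 67 cellulose synthase and wall genes, 1 had an unadjusted p under 0.05, and 45 were dim in both groups. Of the 24 heat shock genes, HSP17.4, a small heat shock protein, read 6.21, 7.29 and 6.53 in fon2-3 asp1-fe and 5.67, 6.03 and 5.35 in fon2-3 (0.99, adjusted p = 0.897), and HSFA4D was lower (−0.53). No gene of the WRKY, NAC, dehydration, aquaporin, low oxygen, circadian clock or anther lists had an unadjusted p under 0.05.

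**Figure D3:**
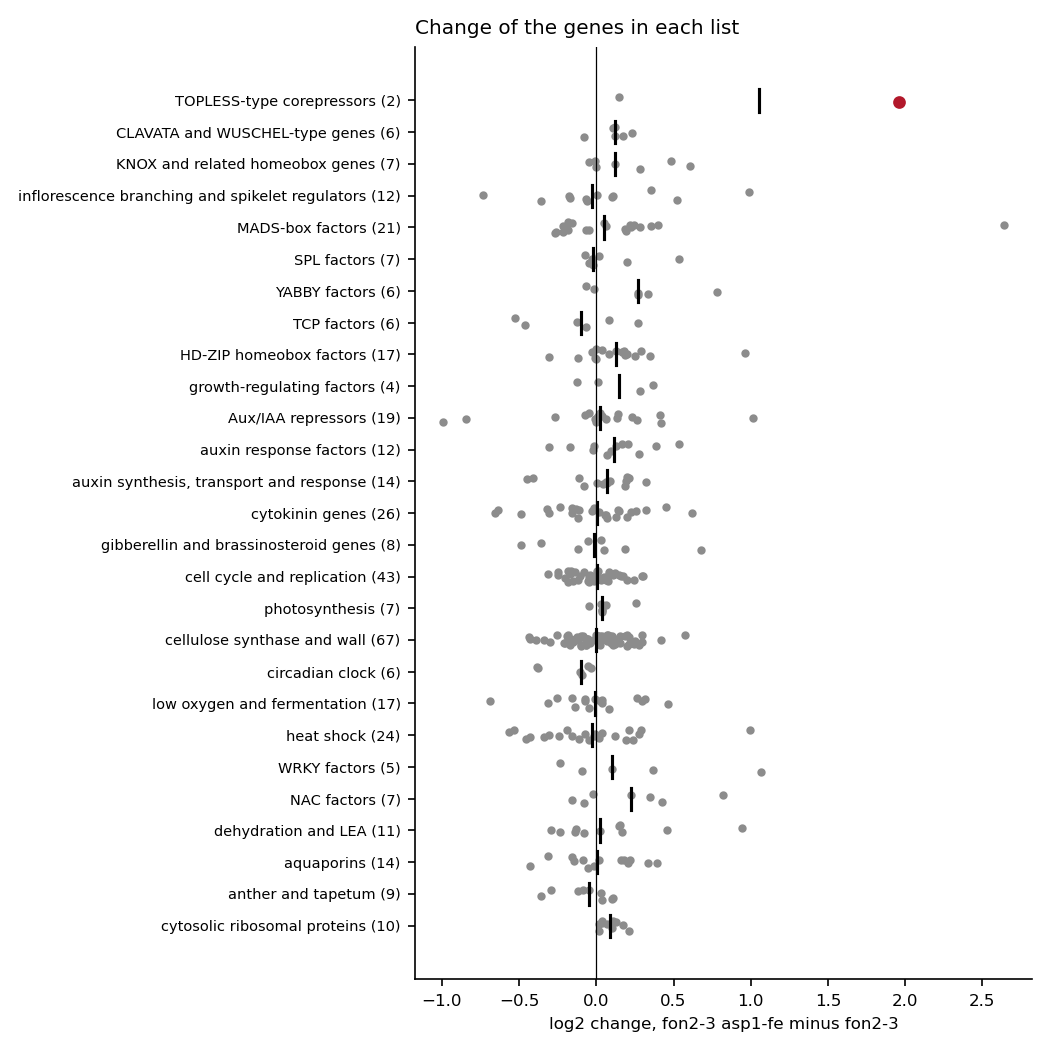
Log2 change in fon2-3 asp1-fe minus fon2-3 (x axis) of every measured gene in 27 lists, with the number of genes in brackets. Grey points are genes that were not called, the red point is the called gene ASPR2, and black bars are list medians; the other lists lie on both sides of 0 or within 0.3 of it by their median.

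The named genes next in order of p reached no call, with adjusted p between 0.636 and 0.858, and are given as values. Higher in fon2-3 asp1-fe were, beside those above, FOR1 (LOC4343645; 0.78), PAL (0.71), the potassium channel gene AKT1 (0.58), SLRL1, a DELLA-like regulator (0.56), opda (0.55), HGGT, an enzyme of tocotrienol synthesis (0.52), and KS5 (0.50). Among these HGGT, KS5 and opda were dim in both groups and PAL in fon2-3. FOR1, a leucine-rich repeat protein linked to floral organ number, was the brightest, at 10.38, 10.03 and 10.0 in fon2-3 asp1-fe and 9.14, 9.54 and 9.37 in fon2-3. Lower were OsSPX2 (−1.87), MGD2 (−1.41), EXLA4 (−0.59), MPH1 (−0.48) and the ethylene receptor gene ETR3 (−0.46). So were the phytosulfokine precursor gene PSK5 (−0.42), the calcium pump gene ACA8 (−0.39) and OsPDIL5-3 (−0.33). Of the lower genes, MPH1 was dim in both groups and MGD2 in fon2-3 asp1-fe. OsSPX2 encodes a phosphate-sensing SPX-domain protein and read 8.18, 7.51 and 6.95 in fon2-3 asp1-fe, against 10.02, 8.52 and 9.72 in fon2-3 (adjusted p = 0.727). MGD2, a galactolipid synthase, read 5.75, 5.05 and 5.27 in fon2-3 asp1-fe, against 7.57, 6.20 and 6.53 in fon2-3. For both, replicate 1 was highest and replicate 2 lowest within fon2-3 and within WT, and replicate 2 was also lowest within asp1-10. In fon2-3 asp1-fe, replicate 1 was highest for both, while the lowest was replicate 3 for OsSPX2 and replicate 2 for MGD2. Neither was called in asp1-10 against WT (0.18 and 0.43).

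The asp1-10 and WT arrays, none of which enter the change given above, allowed the asp1 effect to be set beside another one. In asp1-10 against WT, 1157 probes (2.11%) and 368 genes (2.43%) were called, 212 higher (1.4%) and 156 lower (1.03%). These sets rest on the fit of all 12 arrays: only 2 probes were called when the asp1-10 and WT arrays were fitted alone. The count of probes was 541 and 215 without asp1-10 replicate 1 or 3, 163, 390 and 271 without WT replicate 1, 2 or 3, and 743 without fon2-3 asp1-fe replicate 1. Of the 212, 124 (58.5%) were positive in fon2-3 asp1-fe against fon2-3, beside 46% of all genes, and their median there was 0.04, against 0.83 in asp1-10. Of the 156, 76 (48.7%) were negative, beside 54% of all genes, with a median of 0.01, against −0.89 in asp1-10. An unadjusted p under 0.05 in the same direction was found for 45 of the 368 (12.2%), and in the opposite direction for 6 and 13. The 45 were 26 higher (12.3% of the 212) and 19 lower (12.2% of the 156), beside 2.31% and 2.92% of all genes. Both p-values of a gene rest on the same estimate of its spread, so genes of small spread reach a low p more easily in both comparisons. These shares are therefore not independent of how the 368 were chosen. One gene of each set was called in both comparisons, ASPR2 among the higher and LOC4325412 among the lower.

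For the 212 genes the median level was 7.59 in fon2-3 asp1-fe and 7.44 in fon2-3, and 7.75 in asp1-10 and 6.66 in WT. For the 156 genes it was 6.53 in fon2-3 asp1-fe and 6.69 in fon2-3, and 6.38 in asp1-10 and 7.40 in WT. Both sets were selected on the asp1-10 and WT arrays, which by itself moves those 2 levels apart, so the levels are descriptions and nothing is read from the order of the lines. Across the 368 genes the changes had a Pearson r of 0.227, and across all 15140 genes 0.0245. Genes are not independent replicates, so these coefficients are descriptions.

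**Figure D4:**
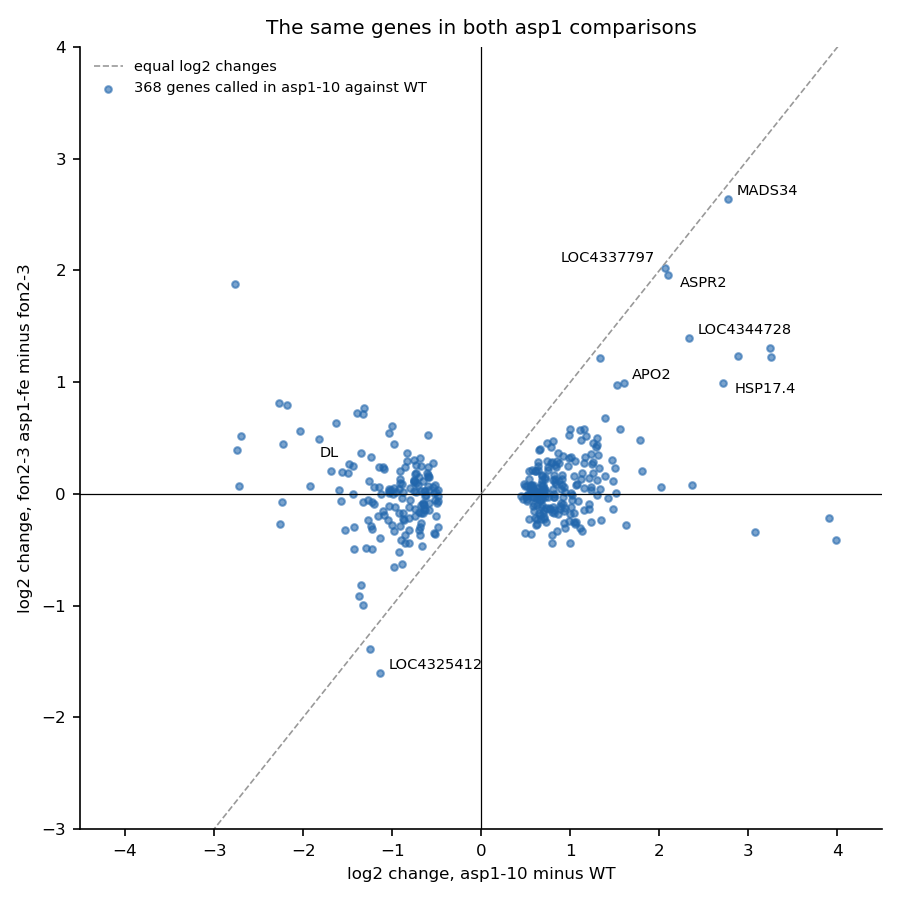
Log2 change in asp1-10 minus WT (x axis) and in fon2-3 asp1-fe minus fon2-3 (y axis) for the 368 genes called in asp1-10 against WT, with the dashed line marking equal changes. Most points lie near 0 on the y axis, while MADS34, LOC4337797 and ASPR2 lie close to the line of equal changes.

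The difference between the asp1 effects was tested as an interaction, the change in fon2-3 asp1-fe against fon2-3 minus that in asp1-10 against WT. Of 54922 probes, 7 (0.0127%) were called, standing for 4 genes (0.0264%), while 2059 genes (13.6%) had an unadjusted p under 0.05. LOC4326339 gave the largest difference, 4.32 at the probe 15803546 (adjusted p = 0.000317) and 2.74 at 15821976 (adjusted p = 0.0422). The other 5 probes had negative differences: each was called higher in asp1-10 than in WT and lay lower in fon2-3 asp1-fe than in fon2-3, where none was called. LOC4340483 read 7.55, 7.53 and 7.49 in fon2-3 asp1-fe and 7.71, 7.80 and 7.81 in fon2-3. In asp1-10 it read 7.95, 7.78 and 8.14, against 6.85, 6.96 and 6.91 in WT, so 3 lines lay above WT and the difference of the effects was −1.297 (adjusted p = 0.0422). LOC4344111 (−1.48, adjusted p = 0.0497) and LOC4341846 (−1.07, adjusted p = 0.0497) had the same order of lines.

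For ASPR2 the difference between the effects was −0.13 (95% interval −0.82 to 0.55, adjusted p = 0.897), and for MADS34 it was −0.13 (−1.99 to 1.72, adjusted p = 0.966). DL, called lower in asp1-10 and level in the double mutant, had a difference of 1.76 (95% interval 1.22 to 2.30) with an adjusted p of 0.0643, past the threshold under 3 of 20 alternatives. The other named genes of smallest p were HGGT (1.12, adjusted p = 0.122), IAA26 (1.67), SSRP1-B (1.59), OsYSL2 (−1.46) and PRR37 (0.93), each of these last at an adjusted p of 0.123. IAA26 was 0.65 lower in asp1-10 than in WT, while it was higher in the double mutant than in fon2-3. PRR37, a clock gene, read 9.38, 9.45 and 9.27 in fon2-3 asp1-fe and 9.37, 9.63 and 9.42 in fon2-3, and 8.84, 9.10 and 8.79 in asp1-10 and 10.0, 9.87 and 9.97 in WT.

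Arrays of 1 genotype differed from each other in ways the groups do not account for. Pearson correlations over the 15140 genes ran from 0.986 to 0.991 among fon2-3 asp1-fe arrays and from 0.986 to 0.989 among fon2-3 arrays. Between the groups they ran from 0.984 to 0.990, so arrays of the 2 groups were about as alike as arrays of 1 group. Among the asp1-10 arrays, which entered the shared spread, replicate 3 correlated at 0.9782 and 0.9794 with replicates 1 and 2. It correlated at 0.9886 with fon2-3 replicate 2 and 0.9885 with fon2-3 asp1-fe replicate 3, and at 0.9854 to 0.9868 with the other arrays of these groups. In a principal component analysis of the 6 arrays the first component (32.8% of the variance) set fon2-3 asp1-fe replicate 3 (−19.6) and fon2-3 replicate 2 (−23.8) apart from the other 4 (8.45 to 13.7). The second (22.3%) parted the groups, at −15.8 to −9.61 for fon2-3 asp1-fe and 5.44 to 17.1 for fon2-3.

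The same arrays stood apart in the morning clock gene LHY, which read 5.84, 6.34 and 10.16 in fon2-3 asp1-fe and 6.88, 9.83 and 6.79 in fon2-3. OsPCL1, an evening clock gene, ran the other way, at 6.25, 6.26 and 2.83 in fon2-3 asp1-fe and 5.19, 3.45 and 6.80 in fon2-3. PDC1, a fermentation enzyme, followed neither pattern and was highest in replicate 1 of both groups. It read 9.51, 6.05 and 5.49 in fon2-3 asp1-fe and 9.55, 5.81 and 7.76 in fon2-3. In fon2-3, replicate 2 was also the highest array for ASPR2, MADS34, APO2, OSH1, FON1 and LAX1. The part of these array differences in the results was not tested beyond leaving the arrays out. Without fon2-3 replicate 2, 5 genes were called in place of 3, and without fon2-3 asp1-fe replicate 3, 1 was. With both left out, limma called 1 probe, 15803546 of LOC4326339, and 0 of the 15140 genes by the probe that stands for each, while 737 genes had an unadjusted p under 0.05.

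**Figure D5:**
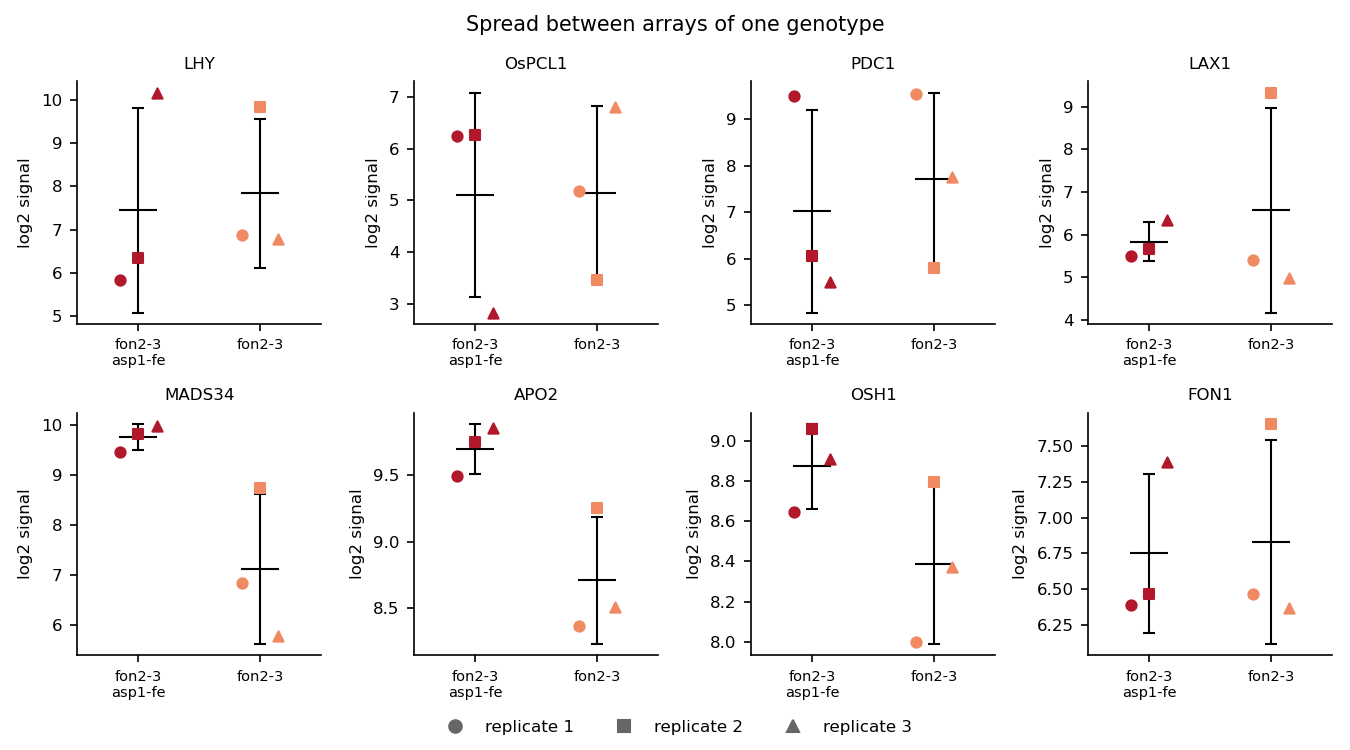
Log2 signal of LHY, OsPCL1, PDC1, LAX1, MADS34, APO2, OSH1 and FON1 in each array of fon2-3 asp1-fe and fon2-3. Symbols mark the replicate and bars the mean ± SD of 3 arrays; fon2-3 asp1-fe replicate 3 and fon2-3 replicate 2 are high for LHY and low for OsPCL1, and fon2-3 replicate 2 is the highest fon2-3 array for the lower 4 genes.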

How the data were processed

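RNA of 12 rice samples was hybridised to 1-colour Affymetrix arrays. The deposited table holds 1 value per probe and array, read here as log2 signal because of its range. Per the submitters' processing notes the authors used Affymetrix Expression Console 1.3. How background, normalization and summarisation were done, the log base and the genome build were not given in the sources used, so no coordinates are printed. Of 54922 probes, 15829 had 1 listed gene and 38653 none, and the 15140 genes all matched the rice gene table (ASM3414082v1), whose synonyms supplied 1741 names. Tests used limma 3.58.1 (lmFit, eBayes) in R 4.3.3: 1 mean per genotype, all 12 arrays, 8 residual and 3.22 prior degrees of freedom, two-sided, Benjamini-Hochberg adjustment over all probes. The fit was tested on simulated data whose noise was drawn independently for each probe and array. Those data held no array-wide differences like those seen here, so the simulation does not show how the fit handles them. Unadjusted p-values are given as descriptions.

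Named genes were a core (ASPR1, ASPR2, FON1, WOX4, OSH1, OSH15, OSH71, APO2, MADS34 and DL), called genes and list members, named genes of smallest p up to 12 in each direction, and 6 for the interaction. The 27 lists were matched by name, and 11 ambiguous matches were removed. Members, lists and alternatives were chosen with earlier results of these data known. Alternatives were other scalings, a filter on dim probes, other variance priors and weights, the replicate block and leaving out arrays.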

Additional observations from a re-analysis of the deposited data

Results flagged for a closer look

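The 7 probes whose change in fon2-3 asp1-fe against fon2-3 differed from the change in asp1-10 against WT, by the interaction test of limma over 54922 probes, are given here. For LOC4326339 the difference was 4.32 at the probe 15803546 (adjusted p = 0.000317) and 2.74 at the probe 15821976 (adjusted p = 0.0422). All 3 double mutant arrays lay above the other 9 at both probes. The other 5 probes had negative differences. The probe 15803623, with no listed gene, had −1.77 (adjusted p = 0.039) and read 8.13, 8.28 and 8.35 in fon2-3 asp1-fe and 8.89, 9.18 and 9.24 in fon2-3, and 9.22, 9.26 and 9.20 in asp1-10 and 8.48, 8.42 and 8.03 in WT. The probe 15925960, also with no listed gene, had −1.50 (adjusted p = 0.039) and read 6.84, 7.07 and 7.04 in fon2-3 asp1-fe and 7.43, 7.49 and 7.31 in fon2-3, and 8.10, 7.97 and 8.0 in asp1-10 and 6.75, 7.0 and 7.09 in WT. LOC4340483 had −1.297 (adjusted p = 0.0422). LOC4344111 had −1.48 (adjusted p = 0.0497) and read 7.10, 7.12 and 7.12 in fon2-3 asp1-fe and 7.41, 7.28 and 7.40 in fon2-3, and 7.36, 7.28 and 7.74 in asp1-10 and 6.33, 6.31 and 6.06 in WT. LOC4341846 had −1.07 (adjusted p = 0.0497) and read 6.75, 6.82 and 6.82 in fon2-3 asp1-fe and 6.85, 7.03 and 6.89 in fon2-3, and 7.24, 7.18 and 7.28 in asp1-10 and 6.30, 6.32 and 6.24 in WT. The call at 15803546 held under all 20 alternatives run, and the others held under 4 to 9 of 20.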

How the results depend on the processing

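For fon2-3 asp1-fe against fon2-3, 3 genes and 5 probes were called. With only the 6 arrays compared these counts were 1 and 2, and with fon2-3 replicate 2 and fon2-3 asp1-fe replicate 3 left out together 0 and 1. Leaving out 1 array at a time gave 1 to 5 genes and 2 to 8 probes, highest without fon2-3 replicate 2. For asp1-10 against WT (1157 probes), 2507 were called with dim probes left out, 2 with only its own arrays, 1775 with a variance trend and robust prior, 496 with an absolute log2 change of at least 1, and 163 to 1202 with 1 array left out. For the difference of the effects (7 probes), the counts were 4 after cyclic loess, 22 without dim probes, 12 with the trend and robust prior, 15 with identical probes counted once, 1 with both arrays left out, and 1 to 25 with 1 array left out. The cause was not tested.

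The replicate number as a block gave 1 gene and 2 probes for fon2-3 asp1-fe against fon2-3, 508 probes for asp1-10 against WT and 2 for the difference of the effects. Deviations of same-numbered fon2-3 asp1-fe and fon2-3 arrays correlated at 0.106, −0.004 and −0.0857. Pairs with different numbers ran from −0.191 to 0.177. Whether arrays of the same number share more than the number was not tested.

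The probe 15803546 of LOC4326339 was called under all 21 alternatives (4.01 to 4.41) and 15821976 under 20 (2.74 to 3.06). Signs turned for FON1 with both arrays left out (0.00941) and without fon2-3 replicate 2 (0.33), fon2-3 asp1-fe replicate 1 (0.098) or 2 (0.06), within −0.4037 to 0.3312 when 1 array was left out, for OSH71 without fon2-3 asp1-fe replicate 3 (−0.005845, within a range up to 0.2817) and for PRR37 with both left out (0.02464). Of 1219 values of 59 single-gene results, 1084 kept their direction and side of the threshold, 119 lost and 10 gained a call. Most of the 59 results were not called in the main fit and had no call to lose, so these totals do not measure how stable the calls were. All losses fell on called results. For fon2-3 asp1-fe against fon2-3, ASPR2 lost its call under 13 of 21 alternatives, LOC4325412 under 17 and the probe 15876607 under 12. For the difference of the effects, calls other than 15803546 were lost under 11 to 16 of 20. The number of arrays limits the precision, and dim genes can hide changes.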

Other observations

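Some genes known only by a locus number differed by more than 1 log2 unit without passing the threshold, and they are named after their values were seen. LOC4324254 was called lower in asp1-10 than in WT, with means of 6.31 and 9.07 (−2.76, adjusted p = 0.0225), and was higher in fon2-3 asp1-fe than in fon2-3, with means of 8.08 and 6.20 (1.88, adjusted p = 0.727). LOC4345061 averaged 6.78 in fon2-3 asp1-fe and 8.91 in fon2-3 (−2.13, adjusted p = 0.443), and 6.81 in asp1-10 and 8.23 in WT (−1.42, adjusted p = 0.0832). LOC4337455 averaged 9.31 in fon2-3 asp1-fe and 10.70 in fon2-3 (−1.39, adjusted p = 0.636), and 9.36 in asp1-10 and 10.61 in WT (−1.25, adjusted p = 0.0466).

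The genes with an unadjusted p under 0.05 were spread over all 12 chromosomes of the gene table. Their share ran from 4.25% of the genes of chromosome 10 to 6.85% of those of chromosome 4, beside 5.22% of all genes. WRKY71, a stress-linked transcription factor, read 8.36, 7.16 and 8.18 in fon2-3 asp1-fe and 6.80, 6.01 and 7.69 in fon2-3, and 8.11, 9.06 and 7.16 in asp1-10 and 9.91, 9.10 and 9.44 in WT. Its change of 1.07 in fon2-3 asp1-fe against fon2-3 had an adjusted p of 0.929, and the groups overlapped.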
